A study of Paracentrotus lividus with 54 samples.

Results

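Of the 154157 open-chromatin peaks deposited for the gastrula of the sea urchin Paracentrotus lividus, 5965 opened at gastrula and were kept to the pluteus larva. Members were chosen by the presence of peaks in the deposited lists: a gastrula peak was a member when it shared at least 1 base with a prism peak and with a pluteus peak and no base with any 16-cell or blastula peak. Members made up 3.87% of the gastrula list (95% exact binomial interval 3.77 to 3.97%). In turn, 13.2% of the pluteus peaks (5903 of 44711) and 5.25% of the prism peaks (5877 of 112026) overlapped a member.

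Peaks came from ATAC-seq, in which a transposase cuts accessible DNA, on nuclei of whole wild-type embryos in normal development. The samples were 7 of gastrula, 4 of prism and 2 of pluteus, with 2 of the 16-cell stage, 6 of early blastula and 7 of late blastula before them, and the deposited data give 1 peak list per stage. Eggs for ATAC-seq were fertilised in sea water with para-aminobenzoic acid to keep the fertilisation envelope soft, per the labels' protocols, and this holds for every stage compared. RNA-seq covered 17 developmental libraries, 1 per stage between 0 and 48 hours after fertilisation, plus 5 adult libraries, of gut, ovaries, tubefeet, bodywall and Aristotle's lantern (the chewing organ). Developmental RNA libraries held 15732056 to 29677432 counts. ATAC depth per stage is unknown, and no peak list has a replicate. The lists deposited for early and late blastula were identical and are called the blastula list, so the stage at which the members opened is known only as after a blastula of unclear age and by gastrula.

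Gastrulation is when the sea urchin blastula folds inward to form the gut, while mesenchyme cells begin to lay down the larval skeleton. The prism and pluteus follow, with a gut, skeletal rods, ciliated bands and a nervous system. Accessible sites away from gene starts often act as enhancers and those at starts as promoters, and sites that first open after the blastula can serve genes used by differentiating larval cells. The study's samples are bulk, so a site open in few cells and one weakly open in many cannot be told apart. The files pair no gene identifier with a gene name, and the DNA sequence of the peaks was not used here.

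Most gastrula peaks were not new. Of all gastrula peaks, 41099 (26.7%) shared no base with an earlier peak, and 21002 of these were found in prism (51.1%). The members are 28.4% of those 21002 peaks and 14.5% of all new gastrula peaks (interval 14.2 to 14.9%). Gastrula peaks already open early reached both larval lists more often, with 34341 of 113058 (30.4%, interval 30.1 to 30.6%). The pluteus list was short, at 29.0% of the length of the gastrula list, and a shorter list and closing sites cannot be told apart. The 16-cell list decided nothing about membership: 30682 of its 30683 peaks overlapped a blastula peak, and the same 5965 peaks were found when only the blastula list was used for exclusion.

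Presence in the pluteus list went with the strength of the peak in gastrula. The deposited score is the area of a peak above the caller's background, and it is used here as a percentile within each list. Among new gastrula peaks up to the 25th score percentile 1.70% were kept to pluteus, and between the 25th and 50th 6.84%. The share was 30.8% between the 50th and 75th percentile, 74.9% between the 75th and 90th and 94.7% above the 90th. For early-open gastrula peaks in the same bands, the shares were 0.158%, 0.518%, 14.6%, 73.6% and 98.1%. New peaks were kept more often than early-open peaks in the 3 lower bands, about as often between the 75th and 90th percentile, and less often above the 90th. The lower overall share of new peaks that were kept thus stood beside their lower scores. These shares describe values that the choice of members used and carry no test.

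Members were mid-sized and of upper-middle strength. Their median width in gastrula was 425 bp (quartiles 291 and 622, range 101 to 2749 bp). New peaks kept to prism only had a median of 289 bp and early-open kept peaks 739 bp. The median score percentile of members was 71.3 among gastrula peaks, 71.2 among prism peaks and 41.7 among pluteus peaks. New peaks kept to prism only had a median gastrula percentile of 42.5 and early-open kept peaks one of 88.0. Only 962 members (16.1%) ranked higher in pluteus than in gastrula, while 2629 (44.1%) ranked higher in prism than in gastrula. Few members ranked above the 90th percentile of a list: 8.67% did in the gastrula list, 9.14% in the prism list and 3.05% in the pluteus list. Ranks from lists of different length do not show a change in accessibility.

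For most members the same point of DNA was the summit at each of the 3 stages. The summit of the prism partner lay a median of 4 bp from the member's summit, and that of the pluteus partner a median of 6 bp. Summits lay within 100 bp of each other for 90.7% of members in prism and 89.4% in pluteus. The prism partner was as wide as the member at the median (ratio 1.00), and the pluteus partner was narrower (ratio 0.893). For 5756 members (96.5%) no other gastrula peak shared their prism and pluteus partners.

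Few members sat at the limits of the overlap rule. An early peak lay within 100 bp of 17 members, within 500 bp of 1005 (16.8%) and within 1 kb of 1810 (30.3%). Just inside the limit, the member closest to an early peak was Scaffold_3434:36477226-36477764, 41 bp from it. The member with the least overlap was Scaffold_3434:18030098-18030364, which shared 7 bp with its pluteus peak. Just outside, Scaffold_3429:4331471-4331996 shared 14 bp with an early peak, and Scaffold_649:7969695-7970639 lay 20 bp from the nearest pluteus peak. Coordinates are 1-based positions in the deposited files, for which the sources used here name no genome build.

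The 4 strongest members, by the lowest of their 3 score percentiles, included 3 on sequences with gene models, 2 inside genes and 1 between genes, none within 1 kb of a start. Scaffold_1721:10502099-10503943 had score percentiles of 98.8 (gastrula), 98.9 (prism) and 98.4 (pluteus). It lay in an intron, 49011 bp downstream of the nearest gene start. Scaffold_3431:7354991-7356644 had percentiles of 98.8, 98.3 and 97.2 in the same order and lay in an exon, 46255 bp downstream of the nearest start. Scaffold_641:17762291-17763576 had 98.5, 98.4 and 97.1 and was intergenic, 8412 bp upstream of the nearest start. The fourth, at 69727505 to 69728537 on the sequence named 1, had percentiles of 96.8, 98.2 and 97.7 and no gene model under that sequence name. In each of the 4 the summits of the 3 lists lay within 4 bp of each other. The widest member, of 2749 bp, was intronic at Scaffold_3435:10117647-10120395, and its pluteus partner was 635 bp wide.

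Positions relative to genes were read for the 5226 members on sequences with gene models. Another 697 members lay on the sequence named 1, for which the gene table has no model under that name, and 42 lay on other sequences without models. Members lay most often in introns, with 2325 of 5226 (44.5%, interval 43.1 to 45.8%), while 37.6% of all 135456 gastrula peaks on such sequences did. Intergenic members numbered 2061 (39.4%), against 46.1% of all gastrula peaks, and exonic members 173 (3.31%), against 4.23%. Early-open kept peaks were intronic in 31.7% and new peaks kept to prism only in 41.4% of cases. The intron share of members was 42.4%, 42.5%, 44.4% and 48.7% over 4 equal groups of members by rising score, while that of all gastrula peaks in the same score ranges was 39.2%, 38.6%, 36.6% and 32.2%. Strong members were thus intronic more often and strong gastrula peaks at large less often.

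A summit within 1 kb of a gene start was found for 667 members (12.8%, interval 11.9 to 13.7%), close to the 12.0% of all gastrula peaks. It was 24.9% with equal numbers of top-scoring peaks taken from each list and 25.9% with the 16-cell list alone used for exclusion. Both settings let in gastrula peaks that overlap a blastula peak. With the 16-cell list alone, 16885 of the 22850 peaks were early-open kept peaks first seen in blastula. The share was 11.1% for new peaks kept to prism only and 22.0% for early-open kept peaks. Those early-open kept peaks that were absent at the 16-cell stage and first seen in blastula had the higher share, 30.6%, and those present since the 16-cell stage had 13.6%. The median distance of members to the nearest start was 8970 bp, against 8675 bp for all gastrula peaks and 6452 bp for early-open kept peaks. In the highest of these 4 score groups, 9.76% of members were at a start, against 22.3% of all gastrula peaks in that score range. These positions were not used to choose the members, and with 1 list per stage their intervals cover counting error only, without the difference between samples.

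At starts, members lay upstream more often than downstream. Of the 667 start members, 423 (63.4%, interval 59.6 to 67.1%) had their summit upstream of the nearest start. The upstream share was 52.1% for new peaks kept to prism only, 39.5% for early-open kept peaks and 43.3% for all gastrula peaks. Over all pairs of a summit and a start within 1 kb, the median signed position was -90 bp for members, -26 bp for new peaks kept to prism only and 57 bp for early-open kept peaks. The most frequent 100 bp for members was the one directly upstream of the start. Early-open kept peaks had their most frequent 100 bp downstream of it, in the bin that begins 200 bp inside the gene.

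**Figure D1:**
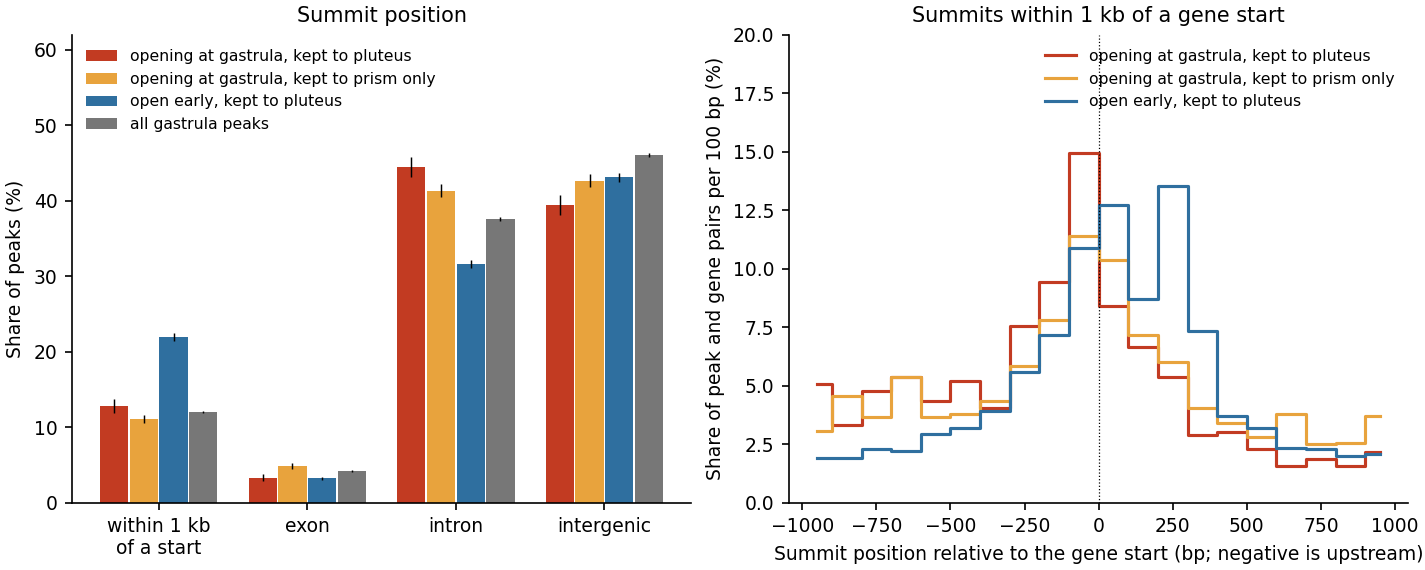
Left, share of peaks in percent by summit position for members, new peaks kept to prism only, early-open kept peaks and all gastrula peaks, with 95% exact binomial intervals; right, share of peak and gene pairs in percent by summit position within 1 kb of the start, in bins of 100 bp. Members have the tallest intron bar (44.5%) and a distance profile that leans upstream (median -90 bp), while early-open kept peaks lean downstream (57 bp).

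Members lay near each other. The nearest gastrula peak was itself a member for 1414 of 5957 members with a neighbour (23.7%, interval 22.7 to 24.8%), while over all gastrula peaks it was a member in 4.04% of cases. For new peaks kept to prism only it was a member in 8.16%, and for early-open kept peaks in 4.49%. New peaks kept to prism only also lay near their own kind, which was the nearest peak for 22.0% of them and for 10.2% of all gastrula peaks. Early-open kept peaks had 28.9% against 21.4% on the same measure. Another member lay within 5 kb of 2480 members (41.6%) and within 20 kb of 3845 (64.5%). Members were found along all 19 long sequences that together held 5824 of them, at 4.94 to 10.04 members per Mb, and made up 3.07 to 5.79% of the gastrula peaks there. Scaffold_3014 had the highest value on both measures.

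Scaffold_3014 also held the densest run, 12 members between 7266034 and 7285093. One gene model on the plus strand, at 7268666 to 7288484 with 4 exon records, contained 11 of the 12 among its 14 gastrula peaks. The start of this gene was already open in blastula, with peaks at 7267584-7268887 and 7269175-7270211. The 16-cell list had a peak just downstream of the start, at 7269582-7270058. Blastula peaks also lay farther inside the gene, at 7280996-7281443 and 7286236-7286598, with score percentiles of 12.3 and 4.61. In gastrula a single peak of score percentile 99.9 covered that start, at 7267027-7270502, and the intron members downstream joined it. The strongest member of the run, 7275572-7276687, had percentiles of 96.8 (gastrula), 94.9 (prism) and 90.8 (pluteus). The weakest in gastrula, 7279918-7280105, had 14.4 (gastrula), 61.2 (prism) and 50.2 (pluteus). RNA counts for this gene were low, and it rose in the test described further on (fitted log2 difference 3.51, SE 1.15, edgeR adjusted p = 0.0135). It had CPM values (counts scaled to the library total) of 0.829 at early gastrula, 0.455 at late gastrula, 0 at prism and 0.876 at pluteus, against 0 to 0.169 CPM in the 6 libraries from the 16-cell stage to blastula. Levels this low are near the 0.202 to 0.316 CPM that 3 counts, after division by 2 as every count was even, stand for in the 4 late libraries. This locus was singled out by its number of members.

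**Figure D2:**
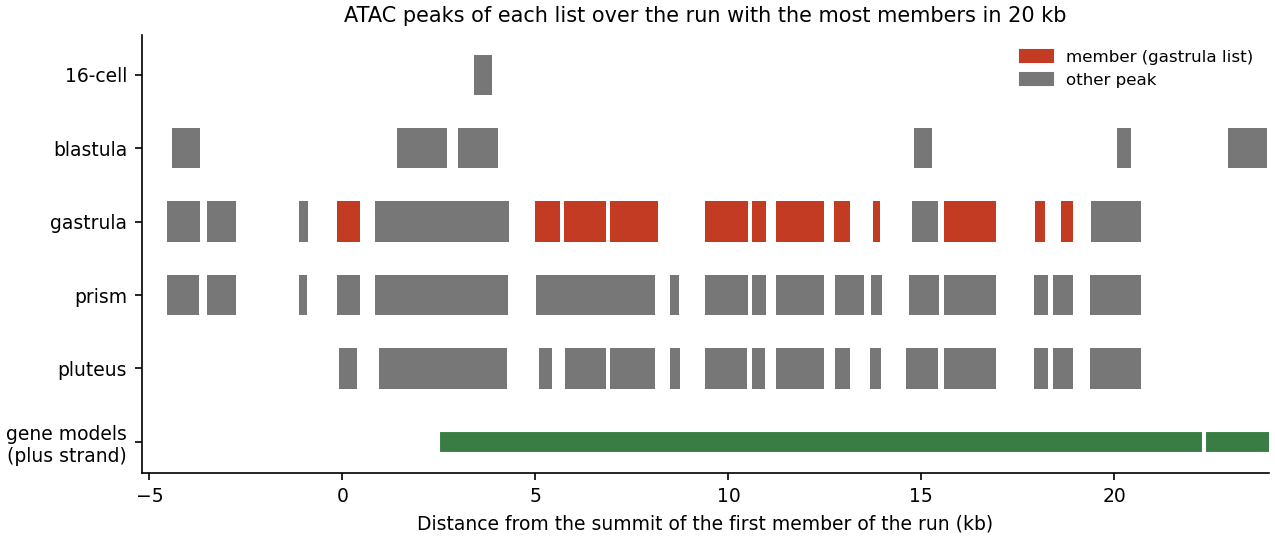
Peaks of the 5 lists over the densest run, by distance in kb from the summit of its first member; red boxes are the 12 members in the gastrula row, gray boxes other peaks, green boxes the gene models. The start region of the gene has peaks in blastula already, while 11 members fill its body from gastrula on and have counterparts in the prism and pluteus rows.

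In all, 1602 gene models held at least 1 member within their span, 558 at least 2, 277 at least 3 and 85 at least 5. Genes with members were long, with a median span of 31.8 kb for those with at least 1 and 74.9 kb for those with at least 5. All models on sequences with peaks had a median of 6.42 kb. A longer span has more room for peaks of any class, and genes holding peaks of other classes were not compared. The most members in 1 gene model was 12, in 2 models on Scaffold_3428 whose spans are 171 and 168 kb. The model at 3700808-3871857 averaged 1860 ± 1152 CPM in the 4 late libraries and 1851 ± 292 CPM in the 6 early ones (SD across stages). The model at 27537401-27705612 averaged 17.8 ± 19.5 CPM in the late and 24.2 ± 5.26 CPM in the early libraries. Neither passed the test described next (fitted log2 difference 0.20 and -0.35, edgeR adjusted p = 0.637 and 0.370). The 3 models with 11 members, one of them that of the densest run, all rose in that test, as did 32.5% of all genes tested. The model at Scaffold_3433:14975733-15047103 averaged 118 ± 59.4 CPM in the late and 63.9 ± 22.9 CPM in the early libraries (fitted log2 difference 1.16, SE 0.35, edgeR adjusted p = 0.00735). The model at Scaffold_3434:21015223-21066745 averaged 2.28 ± 3.01 CPM in the late and 0.230 ± 0.269 CPM in the early libraries (2.84, SE 0.99, edgeR adjusted p = 0.0197). This model had 0 CPM at early gastrula, 1.73 at late gastrula, 0.737 at prism and 6.67 at pluteus. Its early libraries ran between 0 and 0.729 CPM, so the ranges overlapped, and its late mean rested largely on the pluteus library. These 5 models were picked for their member count, outside the rule for named genes.

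RNA was compared between the 4 late libraries (early gastrula, late gastrula, prism and pluteus) and the 6 early ones (16-, 32-, 64- and 128-cell, early blastula and blastula) for genes with a member at their start. RNA was not used to choose the members. A gene rose or fell when its smooth curve over the 17 stages differed between late and early by at least 1 log2 unit at an edgeR adjusted p under 0.05. Of the 636 genes with a member summit within 1 kb of the start, 596 passed the filter on low counts. Among these 330 rose (55.4%, interval 51.3 to 59.4%) and 75 fell (12.6%, interval 10.03 to 15.5%). Over all 22940 genes tested 32.5% rose and 20.5% fell. The share that fell was lower than that of all genes tested under this rule, but not with equal numbers of top-scoring peaks in each list (38.1% rose, 21.4% fell) or with the 16-cell list alone excluding (34.2% and 22.6%). As said above, both settings let in peaks that overlap a blastula peak. The median log2 difference, late minus early, was 1.64 for genes with a member at the start and 0.37 for all genes tested. Fewer cells of a type and less RNA per cell cannot be told apart in these whole embryos.

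The levels of single libraries, scaled by the TMM scaling factors of the fit, showed the same order. In 215 of the 596 genes (36.1%) each of the 4 late libraries lay above each of the 6 early ones, against 16.3% of all genes tested. In 55 genes (9.23%) each late library lay below each early one, against 16.8% of all genes tested. The prism library stood apart in its scaling, with a TMM factor of 0.367 where the other 16 libraries had 0.812 to 1.28. Without it 313 of 594 genes rose (52.7%) and 80 fell (13.5%), against 29.9% and 21.6% of all genes tested in that fit. Counts on Scaffold_2421 made up 0.209% of the pluteus library and between 3.20% (prism) and 4.502% (late gastrula) of the other 3 late libraries. They were also low in early mesenchyme blastula (0.292%) and late mesenchyme blastula (0.608%), which are in the curve but in neither group compared. Without the pluteus library 307 of 590 genes rose (52.0%) and 75 fell (12.7%), against 27.3% and 22.6% of all genes tested in that fit. The part of either feature in the RNA changes was not tested further.

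The share of rising genes was close with and without an earlier peak at the same start. The start of 459 of the 636 genes had no 16-cell or blastula summit within 1 kb, so the member was the first peak seen there, and of the 427 tested, 234 rose (54.8%) and 58 fell (13.6%). Of the 169 tested genes whose start had an earlier summit beside the member, 96 rose (56.8%) and 17 fell (10.1%). Genes with an early-open kept peak at the start and no member had 33.2% rising and 21.9% falling of 6177 tested, with a median log2 difference of 0.33. Genes with a new gastrula peak at the start but no start peak kept to pluteus had 38.6% rising of 1718 tested. These include new peaks kept to prism only, and starts with an earlier summit were not left out. Genes with no gastrula summit at the start had 29.8% rising of 9421. The differences between these shares were described and not tested.

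The share of rising genes was next split by the side, score and distance of the member. With the member upstream of the start 220 of 380 tested genes rose (57.9%), and with it at or downstream of the start 110 of 216 (50.9%), with intervals that overlap. Start members with a gastrula score above their median stood at 55.5% rising genes and those below at 55.3%. With the summit of a start member within 200 bp of the start 57.6% of tested genes rose, and with it farther away 53.6%. For bands of distance, each peak was assigned to its nearest gene start, and each gene was counted once, at its closest assigned peak. Genes that were the nearest start of no peak of a class were left out of that class. For members, 56.6% of the tested genes rose within 1 kb and 41.8% between 1 and 5 kb. The share was 36.5% between 5 and 20 kb and 28.9% between 20 and 50 kb. The interval of the last band, 24.2 to 33.9%, spans the 32.5% of all genes tested. For new peaks kept to prism only the shares were 42.4%, 39.0%, 34.1% and 30.0%, and for early-open kept peaks 34.1%, 32.99%, 31.7% and 29.8%. A gene can stand in a band of more than 1 class.

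**Figure D3:**
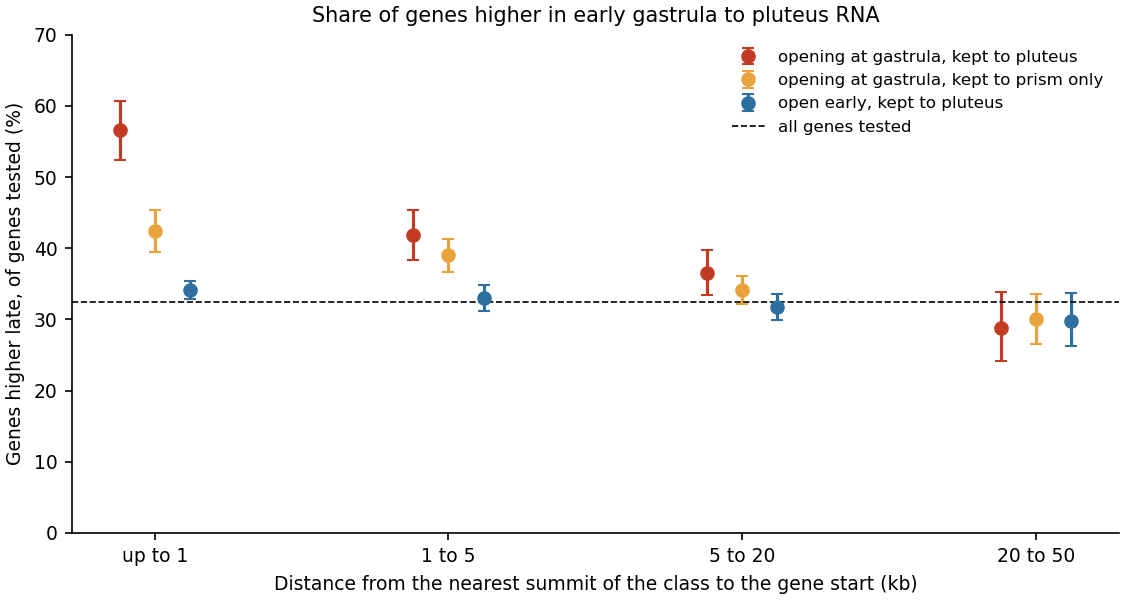
Share of tested genes that rose, in percent, by distance in kb from the gene start to its closest assigned summit, with 95% exact binomial intervals. The classes are members, new peaks kept to prism only and early-open kept peaks, with each peak assigned to its nearest gene start. The dashed line is the 32.5% of all genes tested. The members' share is 56.6% within 1 kb and 28.9% between 20 and 50 kb, and at the far band the 3 classes overlap.

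Genes with members inside their span but none at their start had shares of calls near those of all genes tested, and a higher share whose late and early levels did not overlap. Of 1236 such genes tested, 418 rose (33.8%, interval 31.2 to 36.5%) and 269 fell (21.8%), with a median log2 difference of 0.25. By TMM-scaled level, each late library lay above each early one in 22.6% of them, against 16.3% of all genes tested. Each lay below in 15.3%, against 16.8%. With at least 3 members in the span, at the start or not, 100 of 272 genes rose (36.8%), and with at least 5, 37 of 85 (43.5%, interval 32.8 to 54.7%). All late libraries lay above all early ones in 28.3% and 34.1% of these genes. Assigning an intronic or distal site to the gene around it or nearest to it is a choice of position and does not show which gene the site serves.

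The time course placed the higher levels late. For the 427 genes whose start was first open at gastrula, the median level was 1.75 TMM-scaled CPM per kb of exon at the 16-cell stage, 2.28 in early blastula and 2.03 in swimming blastula. It reached 3.15 at early mesenchyme blastula, 3.92 at early gastrula, 6.72 at late gastrula, 6.52 at prism and 9.75 at pluteus. The median over all genes tested was above that of these genes at the 16-cell stage (2.33) and below it from early mesenchyme blastula (2.82) to pluteus (4.05). The order of the medians changed between swimming and early mesenchyme blastula, 12 and 18 hours after fertilisation, before the first gastrula library. Of the 234 rising genes, 169 (72.2%) had the maximum of their fitted curve in pluteus, against 47.3% of all 7464 rising genes, and 31 (13.2%) had it in early gastrula, against 24.2%. Most of these fitted curves thus were highest after the stage at which the peak was first listed.

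**Figure D4:**
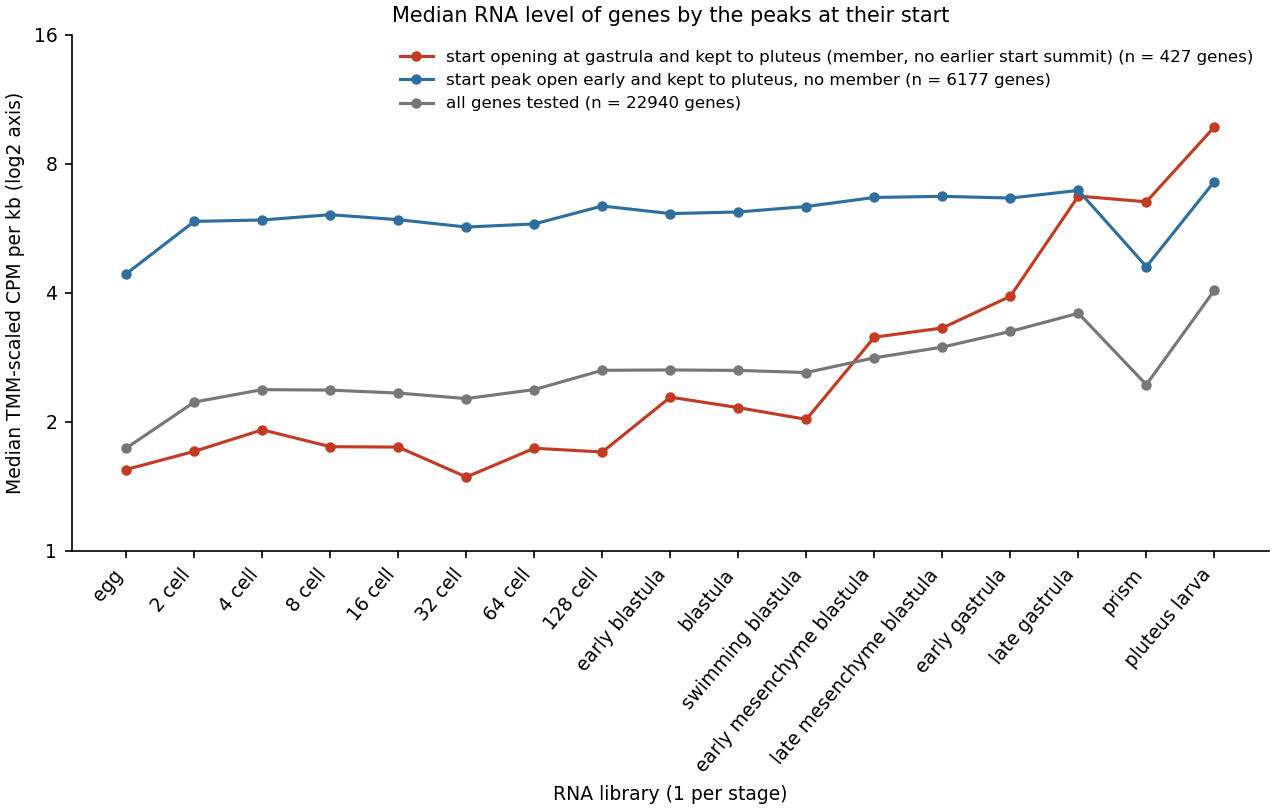
Median RNA level in TMM-scaled CPM per kb of exon on a log2 axis, by library in order of stage, for genes whose start was first open at gastrula with a kept peak, genes with an early-open kept start peak and no member, and all genes tested. The first class is lowest through swimming blastula (2.03) and highest in prism and pluteus (9.75 in pluteus).

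The 2 largest rises and 2 largest falls were named among genes whose start was first open at gastrula, with at least 20 CPM in 1 library. PL33758, at 33049796-33055532 on the plus strand of Scaffold_3430, had 1.66 CPM at early gastrula, 32.4 at late gastrula, 169 at prism and 277 at pluteus, against 0 counts in each of the 6 early libraries. It had no count in any library before early gastrula, so its late mean was at least 445-fold higher than a floor of 3 counts per early library (edgeR adjusted p = 1.01e-07). Its member, Scaffold_3430:33049298-33049680, had its summit 403 bp upstream of the start and percentiles of 48.0 (gastrula), 79.4 (prism) and 59.0 (pluteus). By CPM of the library total, early gastrula was the lowest of its late levels and pluteus the highest. The order of prism and pluteus depends on the scaling, as their TMM factors were 0.367 and 1.08. In the adult tissues the gene had 0.386 to 15.4 CPM, the most in Aristotle's lantern.

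PL26816, at 27803475-27820314 on the plus strand of Scaffold_3431 with 51 exon records, had 812 CPM at early gastrula, 1850 at late gastrula, 16173 at prism and 2504 at pluteus. Its 6 early libraries ran between 0.167 and 0.649 CPM with a median of 0.298, and all late libraries were far above all early ones. The fitted difference was 14.54 log2 units (SE 1.40, edgeR adjusted p = 6.18e-08). The rise began before gastrula, with 0.0831 CPM in swimming blastula, 165 in early mesenchyme blastula and 157 in late mesenchyme blastula. Its member, Scaffold_3431:27803127-27803724, had its summit 7 bp upstream of the start and percentiles of 89.3 (gastrula), 86.2 (prism) and 21.8 (pluteus). No adult tissue had more than 0.276 CPM, so among these 22 libraries the gene was read at high level only from early mesenchyme blastula to pluteus.

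The falling genes had a start peak in gastrula, prism and pluteus, stages at which their RNA was low. Whether the start opened before, during or after the fall is not known. PL11806, at 8454399-8479652 on the plus strand of Scaffold_3428, had 10.1 CPM at early gastrula, 12.02 at late gastrula, 0.527 at prism and 6.13 at pluteus. Its early libraries ran between 33.04 and 158 CPM with a median of 114, and the late and early ranges did not overlap (fitted log2 difference -3.69, SE 0.40, edgeR adjusted p = 2.71e-07). Its member, Scaffold_3428:8454159-8454368, had its summit 112 bp upstream and percentiles of 58.7 (gastrula), 43.2 (prism) and 7.94 (pluteus). PL24241, at 27299930-27316180 on the plus strand of Scaffold_674, had 0.829 CPM at early gastrula, 2.37 at late gastrula, 0.632 at prism and 0.876 at pluteus. Its early libraries ran between 6.08 and 22.7 CPM with a median of 15.3, again without overlap (fitted log2 difference -3.24, SE 0.55, edgeR adjusted p = 5.70e-05). Its member, Scaffold_674:27299866-27300889, had its summit 645 bp downstream of the start and percentiles of 83.6 (gastrula), 86.5 (prism) and 66.1 (pluteus). Both falling genes were highest in the egg, at 170 CPM for PL11806 and 28.3 CPM for PL24241, and had reached their low levels by early mesenchyme blastula. A start with a peak from gastrula to pluteus was thus found beside genes that rose and beside genes whose RNA was already falling before gastrula.

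**Figure D5:**
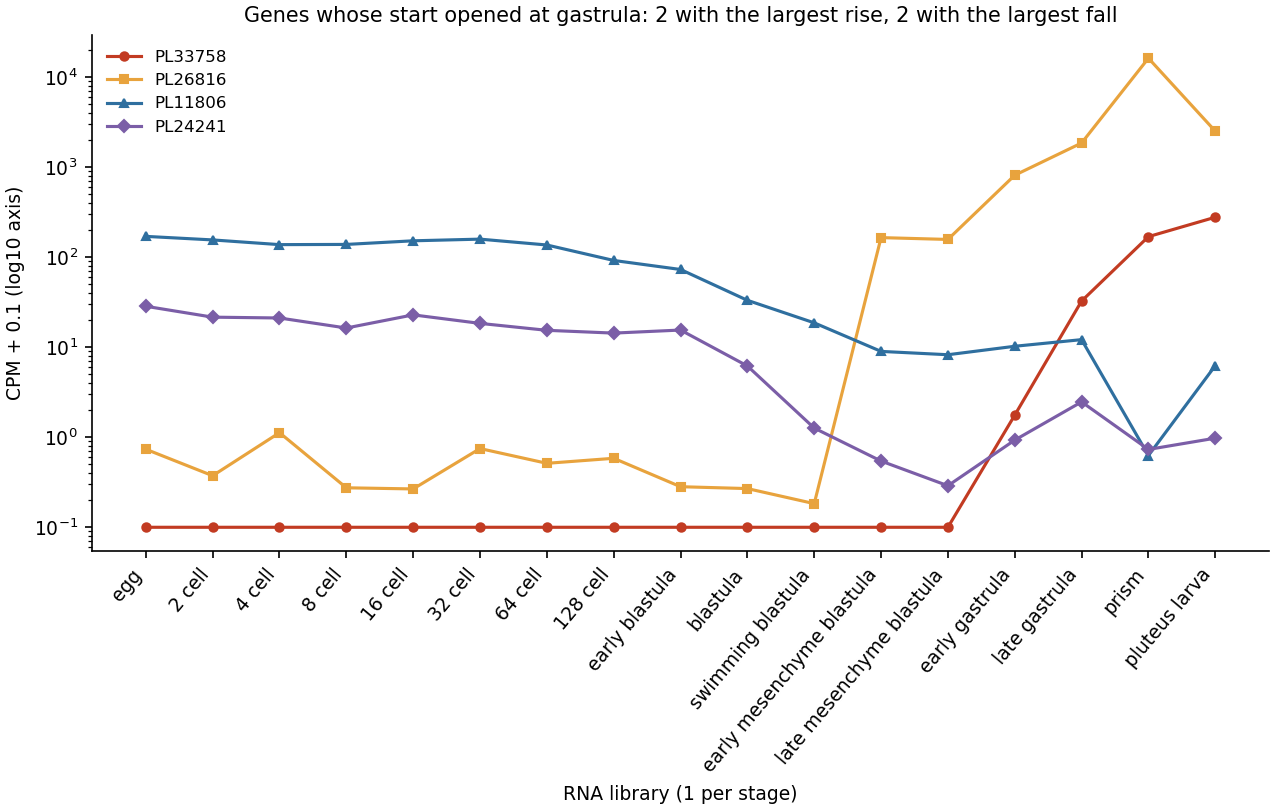
Levels of the 4 named genes in CPM of the library total plus 0.1, on a log10 axis, by library in order of stage. PL33758 appears at early gastrula (1.66 CPM) and PL26816 at early mesenchyme blastula (165 CPM), while PL11806 and PL24241 are low from early mesenchyme blastula on.

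In the adult tissues the 427 genes whose start was first open at gastrula were compared with all genes by the tissue of their highest level. Ovaries held the highest level for 150 of them (35.1%), against 33.3% of all genes tested, and bodywall for 100 (23.4%), against 25.3%. Gut was the highest tissue for 43 (10.1%), against 5.88% of all genes tested. Tubefeet were for 100 (23.4%), against 29.6%, and Aristotle's lantern for 34 (7.96%), against 5.95%. The higher gut share was not seen in the 169 tested genes whose start had an earlier summit beside the member. Among those, gut was highest for 8 (4.73%), tubefeet for 45 (26.6%) and Aristotle's lantern for 14 (8.28%). Each tissue had 1 library, so these shares were not tested.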

How the data were processed

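ATAC-seq peaks were deposited by the authors as 1 list per stage, named for all samples of the stage, so calls were read as pooled. The submitters' processing notes name Bowtie2 2.4.1 and Genrich for them. Each peak has an area score and a -log10 p, both deposited by the authors; the scaling between stages, the calling threshold and the genome build are not given in the sources used here. Deposited RNA counts per gene model were made with STAR 2.5.2b and featureCounts 1.6.1, per the submitters' processing notes, with strand option 1 in the file header. Whether that option matches the strand of the transcript was not tested, and overlapping genes or near-identical copies may share reads. Each count in the 17 developmental libraries was even, so floors and counting errors used counts divided by 2. The edgeR fit and its filter used the undivided counts. With counts divided by 2 in the fit as well, 321 of 578 genes with a start member rose (55.5%) and 81 fell (14.0%). Of all genes in that fit, 33.0% rose and 24.9% fell.

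Overlaps and positions were computed in Python 3.11.15. Summits were placed at a start (within 1 kb), then in an exon, an intron or between genes; the start is the outermost annotated base on the model's strand. Sequences without gene models, among them the sequence named 1, were left out of positions. Binomial intervals are 95% Clopper-Pearson. The RNA fit used edgeR 4.0.16 (R 4.3.3): filterByExpr, TMM, a natural spline with 4 degrees of freedom over stage order in 17 libraries, and the quasi-likelihood test of the late minus early mean with Benjamini-Hochberg adjustment over 22940 genes, leaving 12 residual degrees of freedom. With 1 library per stage, p-values measure scatter around the curve, and culture and stage cannot be told apart. The fit was tested on simulated counts with known changes. It called 91 of 100 genes with a 4-fold change, 12 of 100 with a 2-fold change and 6 of 22740 unchanged genes. Changes near 2-fold were thus mostly missed. Levels named CPM are counts scaled to the library total.

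The members, groups and lists were chosen with earlier results of these data known. The named genes were, among genes with a member and no earlier summit within 1 kb of the start, at least 20 CPM in 1 developmental library and a call, the 2 with the largest rise and the 2 with the largest fall by fitted change, out of 151 rising and 47 falling candidates. The gene lists and motifs of the design need names and a genome and were not used here. The late blastula list, identical to the early one, and the 4 CUT&Tag samples were not analysed here. Alternatives to the overlap rule, the peak threshold, the start window, the scaling, the filter, the curve and the stages compared were run, with DESeq2 1.42.0 as another test.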

Additional observations from a re-analysis of the deposited data

How the results depend on the processing

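Membership depended on the early list and on the peak threshold. With only the 16-cell list excluding, 22850 peaks qualified, with 25.9% at a start, 1710 rising genes and 1131 falling ones (34.2% and 22.6% of 5001 tested, where 32.5% of all genes rose and 20.5% fell in each setting that changes only the peaks or window). With gastrula, prism and pluteus peaks at or above the median -log10 p of their list, 2171 peaks qualified, with 11.8% at a start, 120 rising and 25 falling genes (57.97% and 12.1% of 207). With equal numbers of top-scoring peaks in each list 24.9% were at a start, and 594 genes rose and 334 fell (38.1% and 21.4% of 1561). In these settings with only the 16-cell list or equal numbers of peaks, the falling share was above that of all genes. It was below it in the other 10 peak or window settings. Both settings let in gastrula peaks that overlap a blastula peak, and the cause was not tested. With no early peak within 500 bp, 11.6% were at a start. The start share was 8.71% with a 500 bp window, 35.1% with 5 kb and 14.3% when any base of the peak counted. With the 5 kb window 722 genes rose and 224 fell (47.2% and 14.6% of 1530). Reading sequence 1 against the models of Scaffold_174, an alternative chosen after seeing the data, gave 12.4% at a start, 360 rising and 83 falling genes (54.5% and 12.6% of 660); 11.9% of all gastrula peaks on sequence 1 lay at a start by those models and 6.46% by the models of Scaffold_2100.

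Leaving out each library in turn gave 307 to 329 rising (52.0 to 55.4%, against 27.3 to 32.6% of all genes) and 67 to 83 falling genes (11.3 to 14.0%, against 19.3 to 22.6%). The 10 other settings of the RNA fit gave 241 to 353 rising (48.0 to 59.2% of genes tested, against 20.6 to 35.6% of all genes in the same fits) and 58 to 94 falling genes (9.73 to 15.8%, against 17.6 to 25.2%). Against TMM, library-size scaling moved the median of all genes by -0.36 and RLE factors by 0.22 on the log2 scale. Each of the 4 named genes kept its direction and an adjusted p under 0.05 in 27 alternatives. No paired analysis was possible because each stage has 1 pooled peak list and 1 RNA library, and replicate numbers were given in accession order.

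Pooled lists hide the spread between samples, and the depth behind each list is unknown. Absence from a list means no peak above the caller's threshold there. The 16-cell and pluteus lists, with 30683 and 44711 peaks, were the shortest.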

Other observations

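Read against Scaffold_174, 9.33% of the 697 members on sequence 1 had a summit within 1 kb of a gene start (interval 7.27 to 11.7%), while 12.8% of the members on sequences with models of their own name did. The gene table holds 2845 models on Scaffold_174, where the gastrula list has 0 peaks, while the gastrula list has 15160 peaks on sequence 1, where the table has no model. That the 2 names stand for 1 sequence was not established from the files.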
